A study of Mus musculus with 12 samples.

Results

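The nuclear receptors other than PPARγ were examined in mouse adipocytes in which the noncoding RNA SRA was raised or lowered. The list held 45 genes of the superfamily, and a gene was included when the array carried a probe set annotated to that gene alone. This held for 43 of the 45 genes, among 18194 such genes on the array. Nr1h2, which encodes LXRβ, and Nr2e3, which encodes the photoreceptor-specific receptor PNR, had no probe set of their own and were not measured. Each gene was represented by the probe set with the highest mean over all 12 arrays. A filter on the variance over the arrays left 22 of the 43 members for testing, and the other 21 are described by their levels alone.

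The study asked which genes respond to SRA in mature adipocytes, using Affymetrix mouse genome arrays with 3 arrays in each of 4 groups. ST2 is a stromal line derived from mouse bone marrow, and 3T3-L1 is a mouse fibroblast preadipocyte line. ST2 adipocytes carried the empty retroviral vector pMSCV (control) or pMSCV-SRA, which expresses human SRA isoform 2, and were harvested at day 4. 3T3-L1 adipocytes carried pSuperior-shcontrol (shControl, an empty vector in the sample labels) or pSuperior-shSRA-2 (shSRA), a short hairpin RNA against mouse SRA, and were harvested at day 8. All 4 groups had been induced with MDIT, a mixture of insulin (0.167 µM), troglitazone (5 µM), dexamethasone (1 µM) and methylisobutylxanthine (0.5 mM). Dexamethasone is a ligand of the glucocorticoid receptor and troglitazone is a ligand of PPARγ, so every group had been exposed to a ligand of each. The labels call the replicates biological, and each line is an established cell line.

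Nuclear receptors are transcription factors that bind short DNA elements, many of them as dimers with a retinoid X receptor (RXR), and that recruit coactivators or corepressors. Some respond to lipophilic ligands such as thyroid hormone, retinoic acid, vitamin D, steroids, oxysterols or fatty acids, while orphan receptors act without a known physiological hormone. In adipocytes PPARγ with an RXR partner drives differentiation, and the glucocorticoid receptor, the liver X receptors and the REV-ERB clock repressors also take part in it. The SRA transcript raises the activity of several members of the family, steroid receptors among them.

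The deposited values are log2 RMA expression values, which are comparable between arrays for the same probe set and not between probe sets. Sra1 fell with the hairpin (log2 difference −2.36, adjusted p = 5.58e-07 by limma), while its mouse probe set in SRA overexpressing ST2 adipocytes (0.22, adjusted p = 0.484) is no measure of the human transgene. Pparg did not pass in either comparison (0.41 in ST2, adjusted p = 0.201, and 0.08 in 3T3-L1). All 5 adipocyte markers measured, Fabp4, Adipoq, Cidec, Lipe and Slc2a4, were above background in every group. Their summed linear level was 58100 to 77200 in control ST2 arrays, 78300 to 82300 in SRA arrays, 85700 to 93600 in shControl and 91300 to 95900 in shSRA arrays. The ST2 ranges do not overlap, and the part of this shift in the receptor results was not tested. Of these markers Slc2a4 rose with SRA in ST2 (adjusted p = 0.000176 by limma), Cidec and Lipe did not pass, and Fabp4 and Adipoq were not tested. Of 5 macrophage markers, 2 or fewer were above background in each group, and Adgre1, Ptprc and Itgam were at background in all groups. Cd68 was above background in both ST2 groups (8.14 in control, 8.63 with SRA, adjusted p = 0.458 by limma) and in shSRA. The summed macrophage level was 465 to 571 in control ST2 and 577 to 639 in SRA arrays, without overlap. Csf1r was above background in every group, as were the osteoblast markers Sp7 and Alpl, the endothelial marker Kdr, the muscle marker Ckm and the liver marker Ttr. The osteoblast marker Ibsp, the endothelial markers Pecam1, Cdh5 and Tek, and the liver markers Alb and Cyp3a11 were at background in all groups. Among 4 muscle markers Myog and Myh3 were at background, while Acta1 rose with SRA in ST2 (adjusted p = 0.00557), and the summed muscle level was 402 to 483 in control and 630 to 703 in SRA arrays. ST2 control replicate 2 stood apart from the other arrays. Against the average of the remaining 2 ST2 control arrays, its median deviation was −0.43 over 14314 bright probe sets and −0.14 over the members. Members called only when this array was left out are given with their values then, and calls of members that ended without it are named.

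Expression was read against a background level, the 95th percentile of 74 olfactory, vomeronasal and taste receptor genes on the same array, which lay between 6.22 and 6.54. A member was called expressed in a group when its value exceeded this level on all 3 arrays. By this measure 28 members (65.1%) were expressed in control ST2 adipocytes, 27 (62.8%) with SRA overexpression, 26 (60.5%) in shControl and 27 (62.8%) in shSRA 3T3-L1 adipocytes. Over all genes the shares were 59.3%, 60.3%, 59.3% and 60.9%, so the superfamily was expressed about as often as the rest of the genome. In all, 25 members were expressed in all 4 groups and 14 in none.

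The 25 receptors expressed throughout cover most ligand classes. They comprise the thyroid hormone receptor gene Thra, the retinoic acid receptor genes Rara and Rarg, Ppard, the vitamin D receptor gene Vdr, the oxysterol receptor gene Nr1h3 (LXRα) and the glucocorticoid receptor gene Nr3c1. All 3 RXR genes, both REV-ERB genes (Nr1d1 and Nr1d2) and Rora, whose product activates the elements that REV-ERBs repress, were also among them. The orphan receptors expressed in every group were Nr2c1, Nr2c2, Nr2f2, Nr2f6, Esrra, Esrrb, Nr6a1, Hnf4a and the 3 NR4A genes, together with Nr0b2 (SHP), an atypical receptor without a DNA-binding domain. Several of these lay close to the level: with the 99th percentile of the same genes the counts became 20, 22, 25 and 22 in the order above. The Hnf4a and Esrrb calls rest on the chosen probe set alone. Of the other Hnf4a probe sets, 1 had group means of 6.45 to 6.65, about the background level, and the rest 3.95 to 4.72. The other Esrrb probe sets had group means of 5.45 to 6.26, about or below that level.

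The 14 members at background in every group had 12-array means of 4.37 to 6.33. They were the second subtypes Thrb, Rarb, Rorb and Hnf4g, Ppara, the bile acid and xenobiotic receptor genes Nr1h4 (FXR), Nr1i2 (PXR) and Nr1i3 (CAR), the sex steroid receptor genes Esr2 and Pgr, and Esrrg, Nr2e1, Nr5a1 (SF-1) and Nr0b1 (DAX1). Only 4 members differed between groups in this respect. Esr1 (estrogen receptor α) and Nr2f1 (COUP-TFI) were expressed in both ST2 groups and in neither 3T3-L1 group. Nr3c2, the mineralocorticoid receptor gene, was expressed in both 3T3-L1 groups and in neither ST2 group. Nr5a2 (LRH-1) had group means of 6.34 to 6.46, within the range of the background level, and crossed it on all arrays of control ST2 and shSRA adipocytes.

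**Figure D1:**
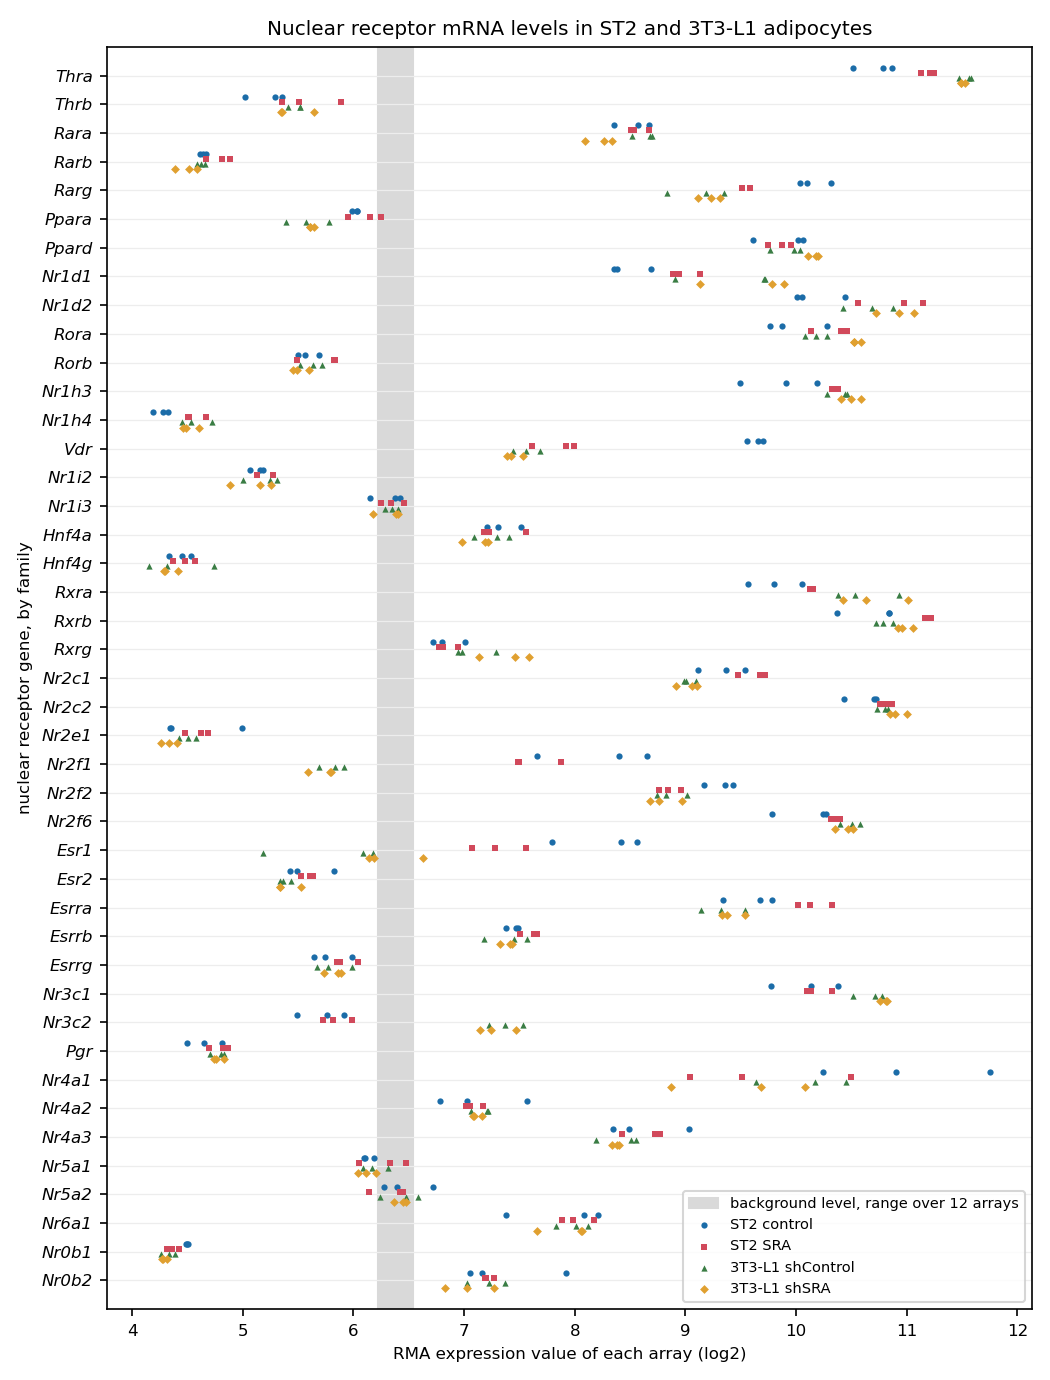
Log2 RMA value (horizontal axis) of the 43 nuclear receptor genes on each of the 12 arrays, with genes grouped by family and the 4 groups by color and symbol. The grey band is the range of the background level over the arrays (6.22 to 6.54): 25 genes lie above it in all groups, Esr1 and Nr2f1 lie above it on all ST2 arrays, and Nr3c2 on all 3T3-L1 arrays.

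SRA overexpression in ST2 adipocytes changed 6 of the 22 tested receptors, 4 downward and 2 upward. Vdr, Nr4a1, Esr1 and Rarg fell, and Nr1d2 and Esrra rose. Of the tested members 27.3% passed, against 7.98% of all 19068 tested probe sets. The fallers are 4 of 22 beside 5.65% of all probe sets lower, and the risers 2 of 22 beside 2.33% higher. The median difference over the tested members was 0.11 and that over all tested probe sets 0.07. In these bulk arrays fewer cells with a transcript and less RNA per cell cannot be told apart.

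Vdr, which encodes the vitamin D receptor, showed the largest response of the family. Its log2 values were 9.56, 9.70 and 9.66 in control ST2 adipocytes and 7.99, 7.61 and 7.92 with SRA. No SRA array came near a control array. The 3T3-L1 values were 7.69, 7.44 and 7.55 in shControl and 7.53, 7.42 and 7.38 in shSRA arrays. The difference was −1.80 (SE 0.16, adjusted p = 5.19e-07 by limma), a 3.48-fold fall. The second Vdr probe set gave −1.90. The call held in every alternative computed, including the omission of each array in turn (differences −1.87 to −1.68), and was −1.77 without ST2 control replicate 2.

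Esr1, encoding estrogen receptor α, had values of 8.42, 7.80 and 8.56 in control ST2 adipocytes and 7.07, 7.28 and 7.56 with SRA. Every SRA array was below every control array. The difference was −0.96 (SE 0.24, adjusted p = 0.0176), a 1.94-fold fall, and −1.19 (adjusted p = 0.00782) without ST2 control replicate 2. The other 2 Esr1 probe sets, both below background, differed by −0.33 and −0.58 and did not pass. Omission of control replicate 1 or 3 or of SRA replicate 1 or 2 ended the call (highest adjusted p = 0.0912).

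Rarg, the retinoic acid receptor γ gene, had values of 10.10, 10.03 and 10.31 in control and 9.59, 9.58 and 9.51 in SRA arrays. The SRA arrays were close to each other and all below the controls. The difference was −0.59 (SE 0.16, adjusted p = 0.0280), and the second Rarg probe set gave −0.55 (adjusted p = 0.0412). The call ended without any of the 3 SRA arrays or without control replicate 3 (highest adjusted p = 0.103), and without control replicate 2 it was −0.65 (adjusted p = 0.0106). Rara differed by 0.04 and Rarb by 0.15, and neither was tested.

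Nr4a1 (Nur77), an orphan receptor induced within minutes to hours by cAMP and growth signals, was variable within every group. Its values were 10.24, 10.91 and 11.75 in control and 9.05, 9.52 and 10.50 in SRA arrays. The groups overlap, since SRA replicate 3 exceeded control replicate 1. At each replicate number the SRA array was below the control array, though the numbers are not shown to pair the ST2 arrays. The difference was −1.28 (SE 0.36, adjusted p = 0.0328), or 2.43-fold. Without control replicate 2 or 3 or SRA replicate 1 or 2 it did not pass (highest adjusted p = 0.173), and 7 of 12 other settings ended the call too. The replicate block was not among these. Of its relatives, Nr4a3 differed by 0.02 (adjusted p = 0.963) and the chosen Nr4a2 probe set, which was not tested, by −0.05, while another Nr4a2 probe set, below background, gave −0.69 (adjusted p = 0.0150).

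Nr1d2, which encodes the clock repressor REV-ERBβ, rose. Its values were 10.00, 10.05 and 10.44 in control and 10.56, 11.14 and 10.97 in SRA arrays, without overlap. The difference was 0.73 (SE 0.19, adjusted p = 0.0184), or 1.65-fold, and its second probe set gave 0.96 (adjusted p = 0.00856). Omission of control replicate 1 or of SRA replicate 2 or 3 ended the call (highest adjusted p = 0.140), while it was 0.67 (adjusted p = 0.0413) without control replicate 2. Nr1d1, encoding REV-ERBα, read 8.35, 8.38 and 8.69 in control and 8.88, 9.13 and 8.94 in SRA arrays. These groups do not overlap either, but the difference of 0.51 (SE 0.22) did not pass (adjusted p = 0.177). The ends of Nr1d1 and Thra overlap on opposite strands.

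Esrra, encoding the orphan receptor ERRα that acts with PGC-1 coactivators on mitochondrial genes, was the weakest of the 6. Its values were 9.79, 9.34 and 9.68 in control and 10.12, 10.33 and 10.01 in SRA arrays. The arrays do not overlap, and the difference was 0.55 (SE 0.17, adjusted p = 0.0480), or 1.47-fold. Omission of any of 10 of the 12 arrays ended this call, the highest adjusted p being 0.235, and it was 0.42 (adjusted p = 0.0726) without control replicate 2. The other Esrra probe set, which was not tested, differed by 0.36.

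Promoters of the 6 genes are shown because their transcripts changed with SRA in ST2 adipocytes. The windows are the 250 bases before the annotated start in RefSeq (GRCm38.p6), 5′ to 3′ on the strand of the gene, taking the first of 2 listed starts for Esr1 and Rarg. For Nr4a1 and Esrra the start used lies inside the annotated gene span (chr15:101253902-101274795 and chr19:6910977-6922048). The Nr4a1 window and nearly all of the Esrra window therefore fall within the gene. Capitals mark AGGTCA, the half-site of many nuclear receptors, TGACG, a half-site of the cAMP response element, and GGGCGG, the GC box, on either strand. The windows lie at chr15:97908297-97908546 (− strand, Vdr), chr15:101266596-101266845 (+, Nr4a1), chr10:4611739-4611988 (+, Esr1), chr15:102257523-102257772 (−, Rarg), chr14:18239107-18239356 (−, Nr1d2) and chr19:6921809-6922058 (−, Esrra).
Vdr: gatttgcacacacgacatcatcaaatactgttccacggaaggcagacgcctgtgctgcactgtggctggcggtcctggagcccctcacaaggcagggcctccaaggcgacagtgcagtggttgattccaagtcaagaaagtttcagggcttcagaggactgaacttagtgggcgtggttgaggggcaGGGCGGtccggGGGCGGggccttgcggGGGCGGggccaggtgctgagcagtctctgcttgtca
Nr4a1: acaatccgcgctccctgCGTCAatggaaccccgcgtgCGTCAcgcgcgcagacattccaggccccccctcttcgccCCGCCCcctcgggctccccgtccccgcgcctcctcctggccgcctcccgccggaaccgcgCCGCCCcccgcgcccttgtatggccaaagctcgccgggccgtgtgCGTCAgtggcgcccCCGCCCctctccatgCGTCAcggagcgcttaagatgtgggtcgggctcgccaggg
Esr1: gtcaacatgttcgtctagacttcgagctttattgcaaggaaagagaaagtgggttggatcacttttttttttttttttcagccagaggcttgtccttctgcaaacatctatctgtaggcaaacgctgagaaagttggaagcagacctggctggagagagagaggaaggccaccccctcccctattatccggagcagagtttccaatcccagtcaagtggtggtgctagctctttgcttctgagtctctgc
Rarg: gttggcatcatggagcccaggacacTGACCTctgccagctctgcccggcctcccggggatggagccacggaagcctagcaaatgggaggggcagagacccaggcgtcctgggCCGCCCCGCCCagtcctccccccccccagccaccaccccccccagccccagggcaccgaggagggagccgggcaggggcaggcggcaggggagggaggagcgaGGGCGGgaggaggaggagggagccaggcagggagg
Nr1d2: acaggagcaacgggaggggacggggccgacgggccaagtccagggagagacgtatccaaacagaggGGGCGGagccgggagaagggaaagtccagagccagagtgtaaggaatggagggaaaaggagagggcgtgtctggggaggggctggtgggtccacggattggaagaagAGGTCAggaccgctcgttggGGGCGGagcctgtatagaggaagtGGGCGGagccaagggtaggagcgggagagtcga
Esrra: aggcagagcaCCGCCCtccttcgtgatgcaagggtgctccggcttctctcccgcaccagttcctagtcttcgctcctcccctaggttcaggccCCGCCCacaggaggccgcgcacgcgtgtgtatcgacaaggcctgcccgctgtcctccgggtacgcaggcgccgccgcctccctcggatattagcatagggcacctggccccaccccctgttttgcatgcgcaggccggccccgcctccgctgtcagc

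The half-site AGGTCA occurred once in the Rarg window and once in the Nr1d2 window, that is in a gene that fell and in a gene that rose, and in none of the other 4. It was present in 14.0% of the 32851 promoter windows in the table. TGACG occurred 4 times in the Nr4a1 window and in none of the other 5, against 17.8% of all windows. GGGCGG was present in 5 of the 6 windows, all but that of Esr1, against 32.7% of all windows, and 2 of its 3 matches in Rarg overlap each other. The windows had a GC content of 47.6% (Esr1) to 74.4% (Nr4a1 and Rarg), with a median of 52.4% over all windows. These matches describe the letters only and were not tested.

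Of the remaining 16 tested members none passed in ST2, with differences of −0.62 to 0.51. Those nearest the threshold were Rxrb, Thra and 2 COUP-TF genes. Rxrb (RXRβ) read 10.84, 10.37 and 10.84 in control and 11.17, 11.22 and 11.18 in SRA arrays, a difference of 0.50 (adjusted p = 0.0562). Thra read 10.79, 10.51 and 10.87 against 11.25, 11.13 and 11.21, a difference of 0.47 (adjusted p = 0.0579). In both genes all SRA arrays exceeded all control arrays. Nr2f1 read 8.65, 7.66 and 8.40 against 7.49, 7.48 and 7.88, and the difference of −0.62 did not pass (adjusted p = 0.0731). Nr2f2 (COUP-TFII) read 9.36, 9.17 and 9.43 against 8.76, 8.84 and 8.96, a difference of −0.47 (adjusted p = 0.0748), while 2 of its other probe sets gave −0.73 (adjusted p = 0.0166) and, below background at 5.96 and 5.29, −0.67 (adjusted p = 0.0155). Without ST2 control replicate 2 all 4 genes passed, with 0.35 for Rxrb, 0.37 for Thra, −0.91 for Nr2f1 and −0.54 for Nr2f2, Esrra and Nr4a1 did not, and the count of members became 8. At an unadjusted p under 0.05, 7 of the 22 members were higher, beside 12.1% of all tested probe sets, and 6 lower, beside 10.1%.

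Nr1h3, Rxra, Rora and Nr3c1 did not pass either. Nr1h3 read 10.19, 9.50 and 9.91 in control and 10.38, 10.36 and 10.32 in SRA arrays. The SRA arrays were above all controls, and the difference of 0.49 (SE 0.17) did not pass (adjusted p = 0.0858), though it did without ST2 control replicate 1 (0.65, adjusted p = 0.0215). Rxra read 10.05, 9.57 and 9.80 against 10.15, 10.13 and 10.12 (difference 0.33, adjusted p = 0.310), and Rora 10.28, 9.77 and 9.87 against 10.41, 10.46 and 10.13 (difference 0.36, adjusted p = 0.208). The Rora probe set of highest variance turned the other way (−0.48, adjusted p = 0.373). Nr3c1, the receptor gene for the dexamethasone in the mixture, read 10.38, 9.77 and 10.14 against 10.14, 10.10 and 10.33, and these groups overlap (difference 0.09, adjusted p = 0.774). Nr2c2 (TR4) at 10.70, 10.44 and 10.72 against 10.75, 10.81 and 10.86, and Nr2f6 (EAR2) at 10.27, 9.79 and 10.25 against 10.31, 10.40 and 10.35, varied too little over the 12 arrays to be tested. The 21 untested members differed by −0.13 to 0.36.

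**Figure D2:**
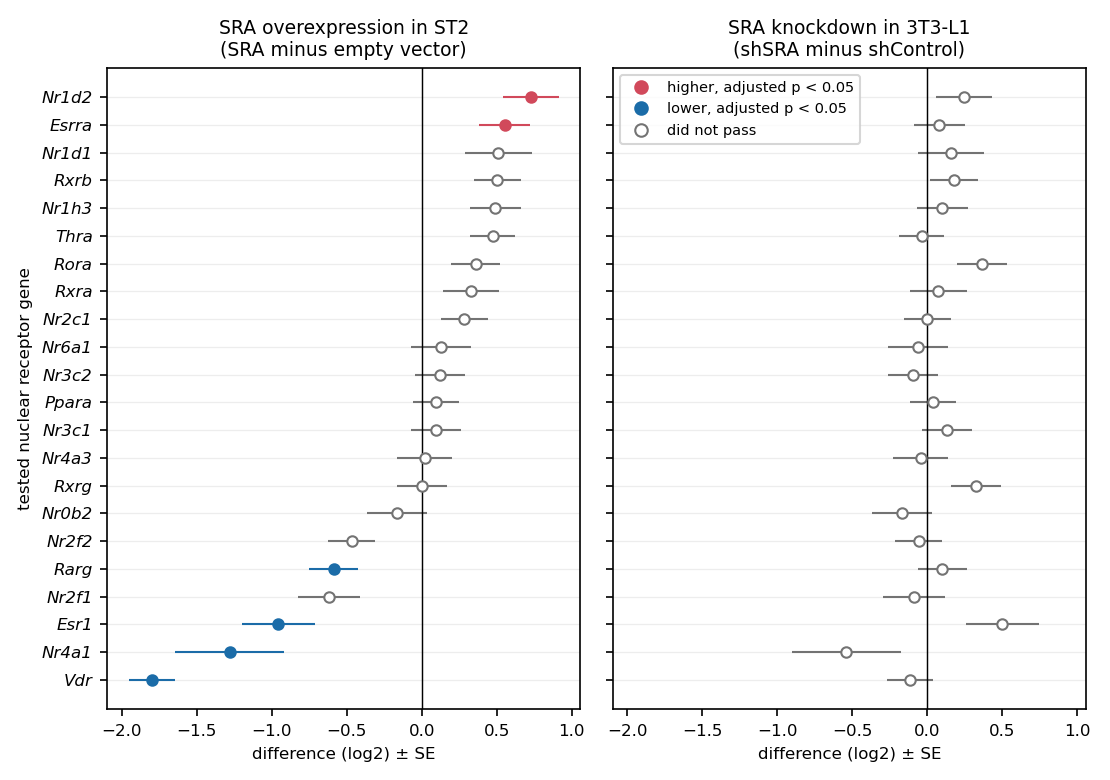
Log2 difference (horizontal axis) with its standard error for the 22 tested nuclear receptors, on the left for SRA overexpression in ST2 and on the right for SRA knockdown in 3T3-L1 adipocytes, in the same order. Filled symbols mark an adjusted p under 0.05, reached by 6 genes on the left, from −1.80 (Vdr) to 0.73 (Nr1d2), and by 0 on the right.

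SRA knockdown in 3T3-L1 adipocytes changed 0 of the 22 tested members by limma at an adjusted p under 0.05, the lowest adjusted p being 0.9998. Few genes passed in this comparison when it was tested alone, 0.0734% of the tested probe sets. The paper, whose model took account of both lines, reported many more altered genes for the knockdown. By nested F classification, which judges the comparisons of a gene jointly, 0.472% of the probe sets and 0 members passed. At an unadjusted p under 0.05, 1 member was higher, Rora, against 2.8% of all probe sets. The differences of the tested members ran from −0.54 (Nr4a1) to 0.50 (Esr1), with standard errors of 0.15 to 0.36. Same-numbered 3T3-L1 arrays deviated together, and when the replicate number was fitted as a block 0.53% of the probe sets and 0 members passed.

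The labels state no pairing, but because same-numbered 3T3-L1 arrays deviated together, they were also read as pairs. Nr4a1 read 10.45, 10.17 and 9.64 in shControl and 10.08, 9.68 and 8.87 in shSRA arrays, which gives −0.37, −0.49 and −0.76 in pairs 1 to 3. It was lower in all 3 pairs, although the groups as a whole overlap and the difference of −0.54 did not pass (SE 0.36; with the block, adjusted p = 0.126). Vdr and Nr2f1 were the other 2 tested members lower in all 3 pairs, with differences of −0.12 and −0.09, and Nr2f1 was below background there. Rora read 10.18, 10.28 and 10.08 in shControl and 10.52, 10.53 and 10.59 in shSRA arrays, higher in all 3 pairs by 0.24 to 0.51 (difference 0.36, unadjusted p = 0.0401), while the Rora probe set of highest variance gave −0.18. Of the 22 tested members 9 were higher in all 3 pairs, beside 19.3% of all tested probe sets, and 3 were lower, beside 15.6%. Besides Rora, those higher were Nr1d1, Nr1d2, Nr1h3, Rxra, Rxrb, Rxrg, Esrra and Esr1. Esr1 was also higher in each pair (0.95, 0.10 and 0.45), but only 1 of its 6 values in these cells, 6.62 in shSRA replicate 3, exceeded 6.54, the highest background level of any array.

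The other receptors that changed in ST2 adipocytes did not pass with the hairpin. Rarg read 9.19, 9.35 and 8.84 in shControl and 9.32, 9.23 and 9.12 in shSRA arrays (difference 0.10). Nr1d2 read 10.87, 10.42 and 10.69 against 10.93, 10.72 and 11.07 (difference 0.25), and Esrra 9.14, 9.53 and 9.32 against 9.37, 9.53 and 9.33 (difference 0.08). In these 3 genes the groups overlap. Within pairs 1 to 3 Nr1d2 was higher by 0.06, 0.30 and 0.38, and Esrra by 0.23, 0.0005 and 0.01, while Rarg went both ways. Thra read 11.56, 11.48 and 11.58 against 11.53, 11.49 and 11.49. Nr1h3 read 10.28, 10.46 and 10.44 against 10.41, 10.50 and 10.59, and Nr3c1 10.78, 10.71 and 10.51 against 10.76, 10.81 and 10.82. The values of all 3 overlap between shControl and shSRA arrays. Within pairs Nr1h3 was higher by 0.04 to 0.14, while Thra and Nr3c1 went both ways. The untested Nr2c2 read 10.73, 10.83 and 10.80 against 10.85, 10.89 and 11.00, and Nr2f6 10.50, 10.58 and 10.40 against 10.47, 10.52 and 10.35. Among the 21 untested members 2 were higher on all shSRA than on all shControl arrays, Nr2c2 (0.13) and Ppard (0.24), beside 3.1% of all untested genes, and 2 were lower, Nr2e1 (−0.17, at background) and Rara (−0.40), beside 5.53%. The Rara values were 8.69, 8.68 and 8.51 in shControl and 8.09, 8.26 and 8.34 in shSRA arrays.

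**Figure D3:**
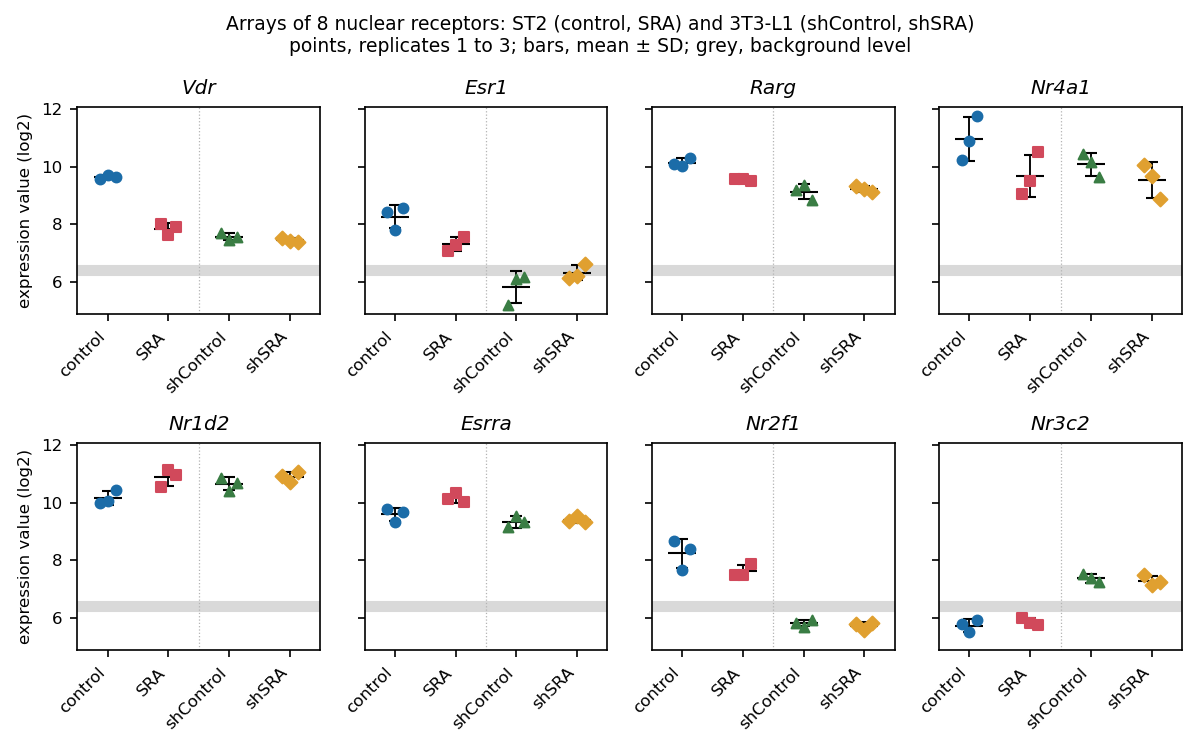
Log2 value (vertical axis) of 8 nuclear receptors on each array, with the mean and SD of the 3 arrays of a group and the background level in grey. Vdr, Esr1 and Rarg are lower in SRA than in control ST2 arrays without overlap, Nr4a1 is lower with overlap, Nr1d2 and Esrra are higher, and Nr2f1 and Nr3c2 differ mainly between the lines.

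The effect of overexpression in ST2 minus the effect of knockdown in 3T3-L1 was tested directly. A value of 0 would mean equal shifts in the same direction, although the manipulations are opposite. Of the tested members 2 passed, or 9.09%, against 2.32% of all probe sets. Vdr had a difference of effects of −1.68 (SE 0.22, adjusted p = 0.000222), from −1.80 in ST2 and −0.12 in 3T3-L1. Esr1 had −1.46 (SE 0.35, adjusted p = 0.0272), from −0.96 and 0.50, of which the 0.50 lies between group means of 5.82 and 6.32, both at background. The Esr1 call ended without ST2 control replicate 1 or 3, ST2 SRA replicate 1 or 2, shControl replicate 1 or shSRA replicate 3 (highest adjusted p = 0.0941). For the other ST2 responders the difference did not pass, with −0.74 for Nr4a1 (adjusted p = 0.669), −0.69 for Rarg (adjusted p = 0.171), 0.47 for Esrra (adjusted p = 0.475) and 0.48 for Nr1d2 (adjusted p = 0.541). With the replicate number of both lines as a block Nr4a1 passed (−0.74, adjusted p = 0.0336). With the block in 3T3-L1 alone, where the numbers were taken as pairs, it did not (adjusted p = 0.602). Without ST2 control replicate 2 Rarg (−0.74, adjusted p = 0.0445) and Nr2f1 (−0.82, adjusted p = 0.0286) passed as well.

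The receptor repertoires of the 2 control groups differed in 14 of the 22 tested members. This share, 63.6%, is the same as the 63.6% of all tested probe sets that differed, so it says nothing particular to the receptors. In ST2 control adipocytes 7 members were higher, beside 26.2% of all probe sets, and 7 were lower, beside 37.4%. Line, day of harvest and vector differ together here and cannot be told apart.

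The receptors higher in ST2 control adipocytes included those of estrogen, vitamin D and retinoic acid. Esr1 had a difference of 2.44 (SE 0.24, adjusted p = 6.38e-08), with 5.19, 6.09 and 6.18 in shControl arrays. Nr2f1 had a difference of 2.43 (SE 0.21, adjusted p = 5.90e-09), with 5.83, 5.69 and 5.91 in shControl and 5.78, 5.59 and 5.80 in shSRA arrays. Since both were at background in shControl adipocytes, only bounds can be given, at least 3.58-fold for Esr1 and at least 3.52-fold for Nr2f1 against the background level of those arrays. Vdr was 4.22-fold higher (2.08, adjusted p = 8.24e-10) and Rarg 2.03-fold (1.02, adjusted p = 2.57e-05). Nr4a1 (0.88, adjusted p = 0.0405) and Nr2f2 (0.46, adjusted p = 0.0158) were higher by less, Nr2f2 reading 8.82, 8.75 and 9.01 in shControl and 8.68, 8.76 and 8.97 in shSRA arrays. The seventh, Ppara, encoding the fatty acid receptor of oxidative tissues, was below background in both lines, at 6.03, 6.03 and 5.99 against 5.39, 5.57 and 5.78 (0.44, adjusted p = 0.0191).

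The receptors lower in ST2 control adipocytes were those of corticoids, the clock, thyroid hormone and oxysterols. The RXRα gene Rxra was lower as well. Nr3c2 had the largest difference, with 5.76, 5.49 and 5.91 in ST2 control against 7.53, 7.37 and 7.23 in shControl arrays (−1.65, SE 0.17, adjusted p = 6.34e-08). Against the background level of the ST2 control arrays it was at least 2.03-fold lower there. It remained at 5.99, 5.81 and 5.73 with SRA and at 7.47, 7.14 and 7.24 with the hairpin, so that its values separated by line. Nr1d1 followed (−0.97, adjusted p = 0.000982), with 9.71, 8.91 and 9.72 in shControl and 9.79, 9.13 and 9.89 in shSRA arrays, where replicate 2 was the lowest of both groups. Thra (−0.81, adjusted p = 0.000127) and Rxra (−0.81, adjusted p = 0.00114) were lower by similar amounts, and Rxra read 10.38, 10.53 and 10.93 in shControl and 10.42, 10.63 and 11.02 in shSRA arrays. Nr3c1 (−0.57, adjusted p = 0.00661), Nr1h3 (−0.53, adjusted p = 0.0111) and Nr1d2 (−0.50, adjusted p = 0.0277) completed the group. Of the 14 calls, those of Nr1d2, Nr4a1, Nr2f2 and Ppara ended without particular arrays: ST2 control replicate 1 or 2 or shControl replicate 1 or 3 for Nr1d2, replicate 2 or 3 of either group for Nr4a1, ST2 control replicate 3 or shControl replicate 2 for Nr2f2, and shControl replicate 1 or 2 for Ppara.

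Without ST2 control replicate 2 Nr2c1 (0.42, adjusted p = 0.00760) and Esrra (0.40, adjusted p = 0.0238) were higher in ST2 control adipocytes too. Rxrb showed no call between the lines, with 10.88, 10.79 and 10.72 in shControl and 11.05, 10.92 and 10.96 in shSRA arrays (−0.11 for ST2 control minus shControl, adjusted p = 0.533). Every shSRA array exceeded every shControl array in Rxrb, but its knockdown difference of 0.18 did not pass. The comparisons of the lines and of SRA in ST2 share the ST2 control arrays, which enter them with opposite signs, so the values are not independent and nothing is read from their signs. Side by side, ST2 control minus shControl and SRA minus control were 2.08 and −1.80 for Vdr, 2.44 and −0.96 for Esr1, 1.02 and −0.59 for Rarg, 0.88 and −1.28 for Nr4a1, −0.50 and 0.73 for Nr1d2, and 0.27 and 0.55 for Esrra.

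**Figure D4:**
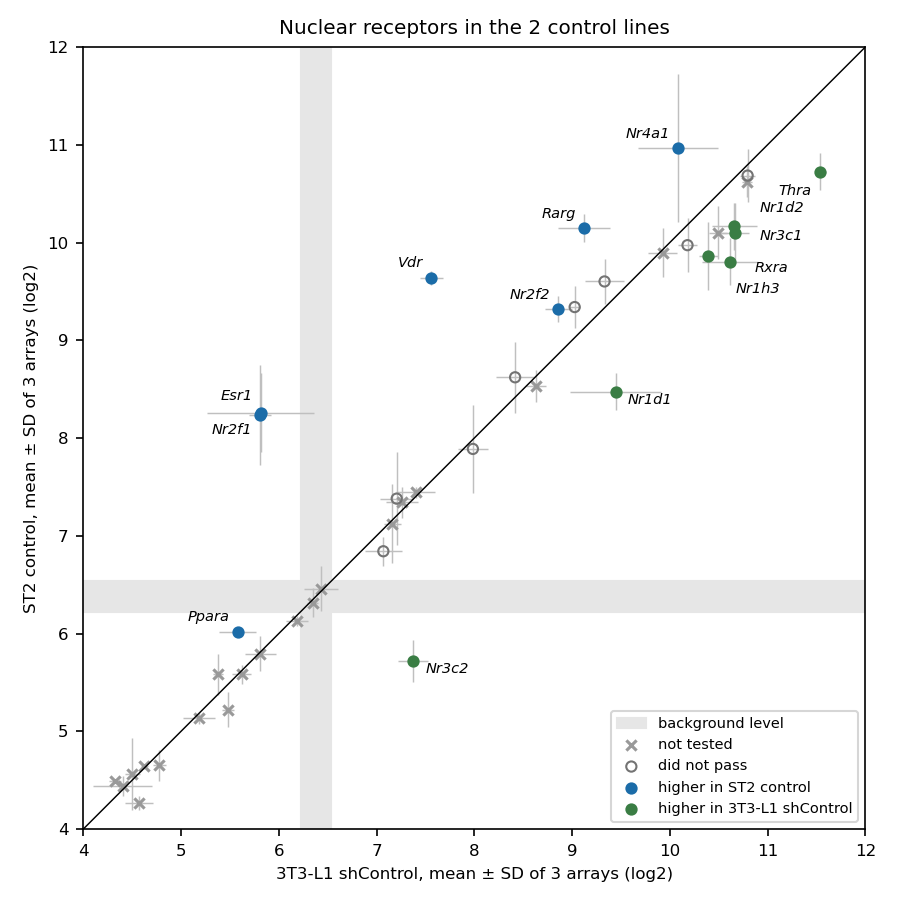
Mean log2 value of the 43 nuclear receptors in 3T3-L1 shControl (horizontal axis) and ST2 control adipocytes (vertical axis), with the SD of 3 arrays and the line of equal values. Esr1 and Nr2f1, at 8.26 and 8.24 in ST2, and Nr3c2, at 7.38 in 3T3-L1, are the called genes that exceed the grey background level in 1 line and not in the other.

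The partners and targets of the receptors were followed through 9 gene lists, each gene by its probe set with the highest mean. In the knockdown 0 genes of these lists passed by limma after adjustment, beside 0.0734% of all tested probe sets. Over all tested probe sets 2.33% were higher and 5.65% lower with SRA in ST2. Between the lines 26.2% were higher and 37.4% lower in ST2 control adipocytes. The list counts below stand beside these shares, can come only from the tested genes of each list, and were not tested as sets. For the REV-ERB and ROR receptors, 3 of 19 measured clock genes rose with SRA in ST2 and 0 fell (median of the 10 tested 0.16). They were the PAR bZIP genes Dbp (1.05, adjusted p = 0.00151) and Tef (0.58, adjusted p = 0.0359) and the period gene Per3 (0.77, adjusted p = 0.0153). Omission of 1 array left 1 to 3 of these calls. Between the lines 6 clock genes were lower and 2 higher in ST2 control adipocytes, the largest being Per3 (−2.67) and Dbp (−2.45).

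For the liver X receptors, 3 of 12 measured targets rose with SRA in ST2 and 0 fell (median of the 7 tested 0.44). They were the sterol-regulatory factor gene Srebf1 (0.70, adjusted p = 0.0190), the cholesterol exporter gene Abca1 (0.65, adjusted p = 0.00911) and Mylip (0.62, adjusted p = 0.0474), whose product degrades the LDL receptor. Without ST2 SRA replicate 2 none of the 3 passed. Srebf1 did not pass without ST2 SRA replicate 1 or 3 either (adjusted p = 0.0573 and 0.0570 by limma). The Mylip call held on omission of ST2 control replicate 1, shControl replicate 1 or shSRA replicate 1, and ended on omission of any other array. For Mylip the highest adjusted p was 0.149, without ST2 SRA replicate 1, and without ST2 control replicate 2 it was 0.116 (difference 0.45). In ST2 control adipocytes 5 LXR targets were lower and 1 higher than in shControl, among them Apoc1 (−7.45), Abcg1 (−3.07) and Apoe (−2.04).

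Few genes of the vitamin D, retinoid and steroid lists passed in ST2, and no list held the targets of estrogen receptor α or of Nr4a1. Of 7 measured vitamin D genes, 2 of which were tested, 0 passed in ST2, and Cyp27a1 (1.01) and Cd14 (0.96) were higher in ST2 control than in shControl adipocytes. Of 18 retinoid genes only Rdh10, which makes the retinoic acid precursor retinaldehyde, changed in ST2 (−0.81, adjusted p = 0.00929; median of the 10 tested −0.04). Rdh10 did not pass without ST2 SRA replicate 1. Without ST2 control replicate 2, 2 retinoid genes were lower with SRA, and without ST2 control replicate 1, 1 was higher and 1 lower. Between the lines 3 retinoid genes were higher, with the transglutaminase gene Tgm2 at 3.91, and 5 lower in ST2 control adipocytes. Among 18 steroid and oxysterol metabolism genes 0 passed in ST2 (median of the 11 tested 0.08), though 1 was lower without ST2 control replicate 2. Between the lines 2 were higher and 6 lower, including Hsd11b1 (−1.84), whose product regenerates active glucocorticoid.

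Of 11 thyroid hormone genes Dio2, the activating deiodinase gene, was the only one to change in ST2 (−0.60, adjusted p = 0.0482), with group means of 6.24 and 5.64 about or below background. The median of the 6 tested was 0.21, and the Dio2 call ended without any 1 of 10 arrays. Between the lines 5 thyroid genes were lower, with Thrsp at −3.81, and 1 higher. Of 20 targets of PPARα and PPARδ the acyl-CoA thioesterase gene Acot2 rose (0.68, adjusted p = 0.0143; median of the 13 tested 0.31), a call that ended without ST2 SRA replicate 2, and 6 were higher and 4 lower in ST2 control adipocytes, Ehhadh at 2.71 and Cpt1a at 2.16 among them. Among 32 nuclear receptor coregulators 0 passed with SRA in ST2 (median of the 21 tested 0.11), while 5 were higher and 11 lower between the lines, with Ppargc1a (PGC-1α) at −3.68. Without ST2 control replicate 2, 1 coregulator was lower with SRA, and without ST2 control replicate 1, 2 were higher. Of 9 receptor chaperones 0 passed in ST2 (median of the 3 tested 0.04), though 1 was higher with SRA without ST2 control replicate 1. Between the lines Fkbp5 (1.92) and Hsp90aa1 (0.52) were higher in ST2 control adipocytes.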

How the data were processed

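Gene expression was measured on 12 Affymetrix mouse genome arrays, 3 for each of 4 groups, from 5 µg of total RNA each. The authors made log2 expression values with RMA, which corrects background, quantile-normalizes the arrays and combines the probes of a set into 1 value, and these log2 values were deposited. The sources used here give no software versions for that step. Quantile normalization at the probe level can remove part of a change shared by most genes. The deposited arrays still differ somewhat in distribution, with medians over all probe sets of 6.45 to 6.53.

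The tests were run on these values with limma 3.58.1 in R 4.3.3. As in the study's methods, probe sets with a variance over the 12 arrays above 0.05 were kept (19068 of 45101). A linear model with 4 group means was fitted to all arrays, and each comparison was tested alone (lmFit, eBayes) with Benjamini-Hochberg adjustment over all tested probe sets at 0.05. The study instead judged a comparison while accounting for the one in the other line, and its counts of altered genes differ from those given here. The residual spread was pooled over the groups, so that leaving out a 3T3-L1 array can end a call in ST2. Genes were named by the platform annotation, in which 34958 probe sets have 1 symbol, 932 several and 9211 none, and only the first kind was used to name genes. The steps were tested on simulated arrays. Promoter windows came from RefSeq (GRCm38.p6) and were searched with Python 3.11.15.

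The members, the 9 lists and the rule for named genes were chosen with earlier results of these data known. Values are given per array for members that passed in the overexpression, knockdown or line comparison and for the 10 members with the highest 12-array mean, and for up to 4 passing genes of each list per comparison. The lists came from textbook knowledge and cover clock partners of REV-ERB and ROR, LXR targets, retinoid, thyroid hormone, vitamin D and steroid genes, targets of PPARα and PPARδ, coregulators and receptor chaperones. Replicates are numbered 1 to 3 in each group. Same-numbered 3T3-L1 arrays deviated together from their group means (correlations 0.59, 0.59 and 0.38), while in ST2 the correlations were 0.04, 0.27 and 0.53, so the numbers were taken as pairs in 3T3-L1 only. The number of arrays sets the precision, and no array scan dates were used.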

Additional observations from a re-analysis of the deposited data

Results flagged for a closer look

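For 2 receptors the effect of SRA overexpression in ST2 adipocytes differed from the effect of SRA knockdown in 3T3-L1 adipocytes by the test of the difference itself. Vdr had −1.68 (SE 0.22, adjusted p = 0.000222 by limma), and all 3 ST2 SRA arrays were below all 3 controls, while shSRA and shControl arrays overlapped. Esr1 had −1.46 (SE 0.35, adjusted p = 0.0272), with SRA arrays below all controls in ST2 and values about the background level in 3T3-L1. The lines also differed in day of harvest, vector and starting level of both genes, and the part of each was not tested.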

How the results depend on the processing

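No difference past the threshold changed direction under any alternative. Of the 66 differences of tested members that did not pass, 29 changed sign in at least 1 alternative, none of them passing there. With the probe set of highest variance Rora gave −0.48 in ST2, −0.18 in the knockdown and 0.52 between the lines, and Nr4a3 gave −0.31 in ST2. The knockdown count stayed at 0 and the counts of expressed members and of members differing between the lines stayed within 1.5 times. The count of 6 members changed with SRA in ST2, beside 7.98% of all probe sets, became 12 with the replicate block (15.9% of all), 10 after a second quantile normalization (13.4%), 10 with arrays centred on bright probe sets (14.4%), 13 with array quality weights (38.4%), 3 with both SRA comparisons adjusted together (6.09%) and 3 by nested F classification (5.29%). Leaving out 1 array gave 1 to 8, being lowest (1, 3.93% of all) when ST2 SRA replicate 2 was omitted, 2 when SRA replicate 1 (5.21%) or control replicate 3 (6.12%) was, 3 for SRA replicate 3 (5.92%), and highest (8, 11.8%) for control replicate 2. The count of 2 members whose SRA effects differ (2.32% of all) became 1 without the variance filter (0.78%), 1 with the mean of a gene's probe sets (2.31%), 3 with the replicate block (5.32%) and 9 with array quality weights (16.5%). It ran from 1 to 4 when 1 array was left out, with 4 (5.4%) without ST2 control replicate 2. In ST2 the replicate numbers are not shown to pair the arrays, and the members gained under the block were Rxrb, Thra, Nr2f1, Nr1h3, Nr2f2 and Nr1d1. In 3T3-L1, where they were taken as pairs, the block of those arrays alone, chosen after seeing the data, also gave 0 members. Only the Vdr call held in ST2 under every alternative. The cause of these shifts was not tested. Levels within about 1 log2 unit of background, as for Esr1 in 3T3-L1, limit what can be seen.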

Other observations

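Different probe sets of a receptor gene did not always give the same reading. Of the 43 members 28 had more than 1 probe set, up to 9 for Rora. Both probe sets of Vdr, Rarg and Nr1d2 passed with SRA in ST2 adipocytes, whereas for Esr1 and Esrra only the chosen probe set passed. For Nr2f2 and Nr4a2 the reverse was seen: the chosen probe set did not pass or was not tested, and others did. Which isoforms these probe sets detect was not tested.

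Nr1d1 had its lowest value in replicate 2 of both 3T3-L1 groups, 8.91 in shControl and 9.13 in shSRA, against 9.71 to 9.89 on the other 4 arrays. The time of day of the harvests is not given in the sources used here.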
